A study of Ovis aries with 12 samples.

Results

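A set of 94 genes, of 25197 gene IDs counted in sheep mitral valve leaflets, was higher 4 weeks after a myocardial infarction (MI) than before it and lower again at 8 weeks. The members were chosen by their own measured values, as CPM (a gene's count divided by the library's total count, times 1000000). A member had a mean of at least 1 CPM over the 12 libraries, and its lowest 4-week value lay above its highest pre-MI value. Its 4-week mean was also at least 1.5 times both the pre-MI mean and the 8-week mean. The 37 lowest-numbered gene IDs were left out by the rule, and 0 of them met its other conditions. All 94 members passed the filter on low counts that preceded the tests.

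Each library held poly-A RNA from the anterior leaflet of 1 adult Dorset sheep. Posterior infarction was produced by permanently tying branches of the circumflex artery, after which the valve can leak backward, a condition called ischemic mitral regurgitation (IMR). The groups were animals sampled before MI (n = 3, none with IMR), animals at 4 weeks without IMR (n = 2) and with IMR (n = 3), and animals at 8 weeks without IMR (n = 2) and with IMR (n = 2). The regurgitation was low-grade, per the series' design text, which speaks of 13 animals while its groups add up to 12. The labels name no genetic change and no sham operation, and each animal gave 1 library, so the course over time is read across different animals. The labels give no sequencing batch, and replicates are named here by the last digit of their titles.

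Mitral leaflets are thin sheets of collagen, elastin and proteoglycan, kept up by valve interstitial cells and covered by endothelium. After an infarction the displaced muscle tethers the leaflets, and leaflet cells are known to become activated and to lay down matrix. The deposited table does not pair its Ensembl IDs with gene names, and 0 IDs matched the name table used here. The members are therefore described by level and pattern, 2 of them by ID, and neither their functions nor the cell types of the leaflet could be checked. In such whole-tissue RNA, fewer cells of a type and less RNA per cell cannot be told apart.

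Of 13605 genes at the level floor outside the lowest-numbered IDs, 163 had every 4-week library above every pre-MI library (1.20%). Of these, 135 had a 4-week mean at least 1.5 times the pre-MI mean, and 94 met the condition on the 8-week mean as well. With the 12 columns relabelled in every other way into groups of 3, 5 and 4 (27719 assignments), the rule kept a median of 25 genes, with a range from 0 to 1373, and 3828 assignments (13.8%) kept 94 or more. The number also changed with the libraries used. The rule kept 205 genes without pre-MI replicate 4, 167 without pre-MI replicate 3 and 148 without 4-week replicate 5 without IMR. It kept 98 without pre-MI replicate 2 and 88 without 4-week replicate 2 with IMR. Leaving out a pre-MI or 4-week library can only loosen the condition on separation, while the means change as well. The part of each in these changes was not tested. Of the 94 members, 53 were kept whichever single library was left out.

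Scaling moved the set's size as well. On total counts the median gene at the floor had a 4-week mean 0.893 times its pre-MI mean (-0.16 on the log2 scale), while this ratio was 1.03 with TMM-adjusted library sizes, which correct for differences in RNA composition. With those sizes the rule kept 184 genes, 90 of them among the 94, and with DESeq2's size factors it kept 164, also with 90 of the 94. Relative to the median gene, the members' median rise from pre-MI to 4 weeks was 3.15-fold. Under all 4 other scalings together, 84 members were kept.

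**Figure D1:**
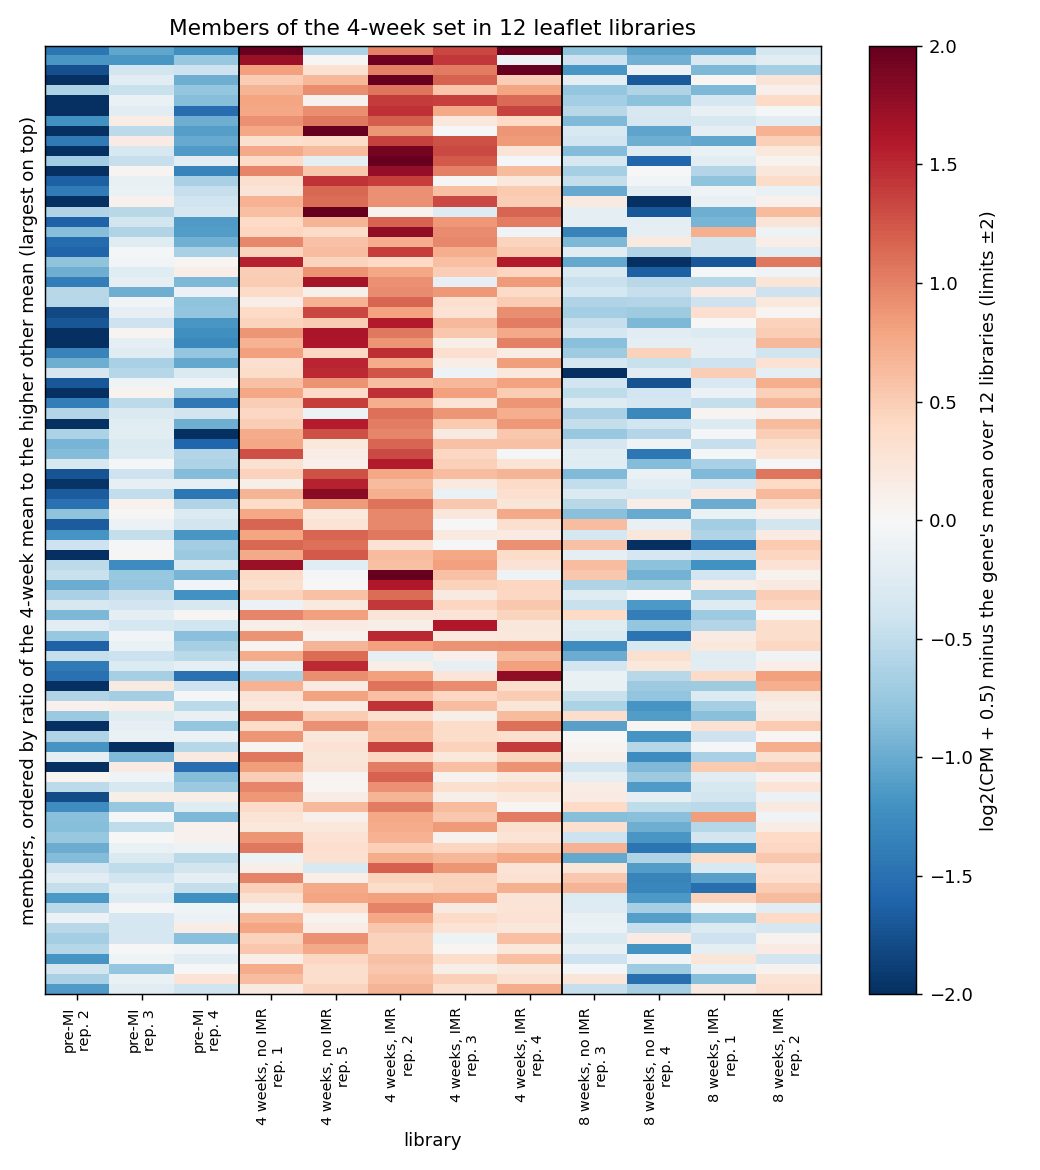
Members (rows, ordered by the ratio of the 4-week mean to the higher of the other means) in the 12 libraries (columns), as log2(CPM + 0.5) minus the gene's mean over the libraries, with red above and blue below that mean. The 4-week columns are mostly red because the rule asked for it. Among the 8-week columns replicate 4 without IMR is lowest for 52 members (55.3%, and 37.2% of all genes at the floor). Replicate 2 with IMR is highest for 64.

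Most members were genes of low or moderate level. The 4-week mean ran from 1.62 to 9475 CPM with a median of 8.17 CPM, against a median of 19.1 CPM over all 13605 genes at the floor. At 4 weeks 32 members lay under 5 CPM, 41 from 5 to under 50, 15 from 50 to under 500 and 6 at 500 CPM or more. The 4-week mean was 1.51 to 52.6 times the pre-MI mean (median 2.82) and 1.50 to 15.0 times the 8-week mean (median 1.92). It was at least 2 times both other means in 40 members, at least 3 times in 5 and at least 5 times in 3.

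The largest ratios belonged to thinly counted genes. The member with the highest ratio had 9.91 and 0.386 CPM at 4 weeks without IMR and 2.24, 2.96 and 6.46 CPM with IMR. Its pre-MI values were 0, 0.169 and 0.0814 CPM and its 8-week values 0.283, 0.154, 0.158 and 0.574 CPM, so that 1 of the 4-week libraries, with 3 counts, lay within the 8-week range. Its 4-week mean was 15.0 times the 8-week mean, and its 4-week values spread 25.7-fold among themselves.

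The member with the next highest ratio had 3.22 and 0.644 CPM at 4 weeks without IMR and 3.82, 2.49 and 0.533 CPM with IMR. Before MI it had 0 counts in replicates 2 and 3, which allows up to 0.204 and 0.169 CPM at 3 counts, and 2 counts (0.163 CPM) in replicate 4. At 8 weeks it lay between 0.0772 and 0.469 CPM, below every 4-week library, though on few counts. The lowest 4-week library (0.533 CPM) and the highest 8-week library (0.469 CPM) each held 9 counts. The member of rank 3 by ratio had 2.45 to 10.7 CPM at 4 weeks, 0.204 to 1.35 CPM before MI and 0.566 to 1.70 CPM at 8 weeks, again without overlap.

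Better separated, and more even, was ENSOARG00000005652, whose lowest 4-week value was 1.87 times the highest value of any other library, the largest such margin among the members. It had 4.35 and 4.89 CPM at 4 weeks without IMR and 7.30, 4.28 and 6.70 CPM with IMR. Its pre-MI values were 0, 1.91 and 0.489 CPM, and its 8-week values 1.42 and 1.78 CPM without IMR and 2.05 and 2.29 CPM with IMR. The means were 0.801 ± 0.994 CPM before MI (SD, n = 3), 5.50 ± 1.40 CPM at 4 weeks (SD, n = 5) and 1.88 ± 0.377 CPM at 8 weeks (SD, n = 4), from 38 to 113 counts per 4-week library. The 8-week mean was 2.35 times the pre-MI mean, with both 8-week libraries without IMR inside the pre-MI range and both with IMR above it. Every 4-week library lay above every other library.

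Another thin member, of rank 5 by ratio, was the most even of the 5 with the highest ratios. Its 4-week values were 2.42, 2.96, 3.32, 2.18 and 2.67 CPM, a spread of 1.52-fold, against 0.570 to 0.844 CPM before MI and 0.473 to 1.46 CPM at 8 weeks. No 4-week library overlapped any other for this gene.

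At the other end of the scale were 5 members between 2587 and 9475 CPM at 4 weeks. The most abundant, ENSOARG00000007656, had 13422 and 7340 CPM at 4 weeks without IMR and 9139, 9194 and 8279 CPM with IMR. Before MI it had 5766, 5153 and 5864 CPM. At 8 weeks it had 9746 and 2665 CPM without IMR and 3176 and 8510 CPM with IMR. The 8-week libraries thus formed a high and a low pair, the high pair inside the 4-week range and the low pair under every pre-MI value, and the pairs cut across the IMR groups. Its means were 5594 ± 385 CPM before MI (SD, n = 3), 9475 ± 2332 CPM at 4 weeks (SD, n = 5) and 6024 ± 3625 CPM at 8 weeks (SD, n = 4).

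The same division at 8 weeks was seen in the members of rank 2, 3 and 4 by level. The member of rank 2 had 3553 and 1023 CPM at 8 weeks without IMR and 1622 and 2682 CPM with IMR, against 3209 to 5256 CPM at 4 weeks. Rank 3 had 3330 and 553 CPM without IMR and 840 and 3190 CPM with IMR, against 2179 to 4885 CPM at 4 weeks. Rank 4 had 2407 and 718 CPM without IMR and 1132 and 2468 CPM with IMR, against 2532 to 3147 CPM at 4 weeks. In each of the 3 genes replicate 4 without IMR was lowest and replicate 1 with IMR next. Both lay below every pre-MI library for ranks 3 and 4, and for rank 2 only the lower of them did (1023 CPM, against 1435 CPM in the lowest pre-MI library). Rank 5 differed, with 1311 and 576 CPM at 8 weeks without IMR and 1806 and 2060 CPM with IMR, so that its low library was replicate 4 alone.

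**Figure D2:**
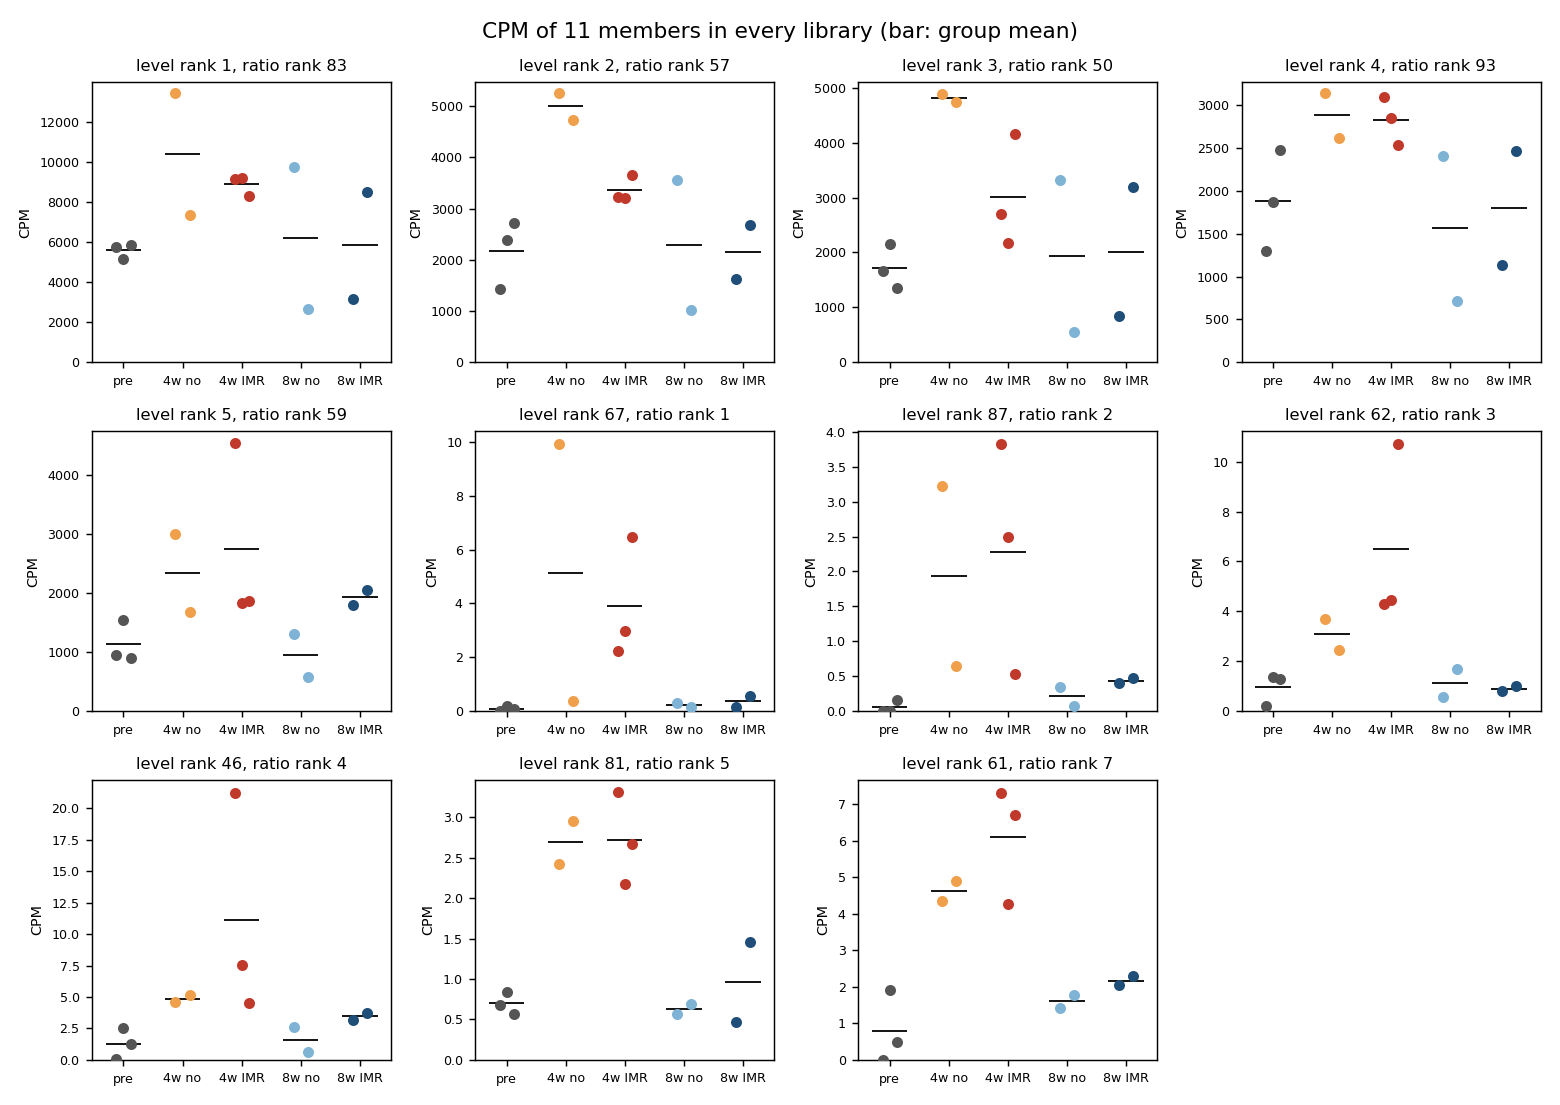
CPM of 11 members in every library (points) with group means (bars), by group on the x axis: the 5 most abundant, the 5 with the highest ratio, and the best separated member (level rank 61, ratio rank 7). For level ranks 1 to 4 each 8-week group has 1 high and 1 low point, while for ratio ranks 2 to 5 every 8-week point lies under every 4-week point. At ratio rank 2 the closest 4-week and 8-week points hold 9 counts each.

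That pair of low 8-week libraries also stood apart in another measure. The 37 lowest-numbered IDs took 11.3% of the counts in 8-week replicate 4 without IMR, 7.14% in 8-week replicate 1 with IMR and 5.97% in pre-MI replicate 2, against 0.928% to 2.38% in the other 9 libraries. The members together took 0.675% and 1.04% of the counts in these 8-week libraries, and 2.27% and 2.19% in 8-week replicate 3 without IMR and replicate 2 with IMR. The 4-week libraries had 2.26% to 3.39% on the members and the pre-MI libraries 1.28% to 1.54%. By this sum, which the abundant members dominate, 1 of the 8-week libraries lay just inside the 4-week range, 1 just under it and the other 2 below every pre-MI library. Counting only reads outside the 37 IDs left 0.761% and 1.12% in the low pair. With totals that leave out the 37 IDs, the rule kept 88 genes, 87 of them members. The members' median ratio of the 4-week to the 8-week mean was then 1.86, against 1.92 on all counts. Over all genes at the floor it was 0.923, against 0.960. Beyond these totals and leaving those libraries out, the part of this share in the members' fall was not tested.

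Without the 3 libraries above 5% on these IDs (an alternative added after seeing the data), the rule kept 93 genes, of which 60 were among the 94. The members' median ratio of the 4-week to the 8-week mean was 1.72 in the remaining libraries, and 2.45 against the 2 low 8-week libraries alone. The abundant members changed most. Of the 6 at 500 CPM or more, 1 kept a 4-week mean at least 1.5 times the 8-week mean, with a median ratio of 1.20. Of the 32 under 5 CPM, 25 kept it, with a median ratio of 1.91. For ENSOARG00000007656 the ratio of the 4-week mean to the higher of the other means was 1.57 in all libraries and 1.04 in these, whereas for ENSOARG00000005652 it was 2.92 and 2.97. Across the 15 members from 50 to under 500 CPM, 8 kept the ratio.

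**Figure D3:**
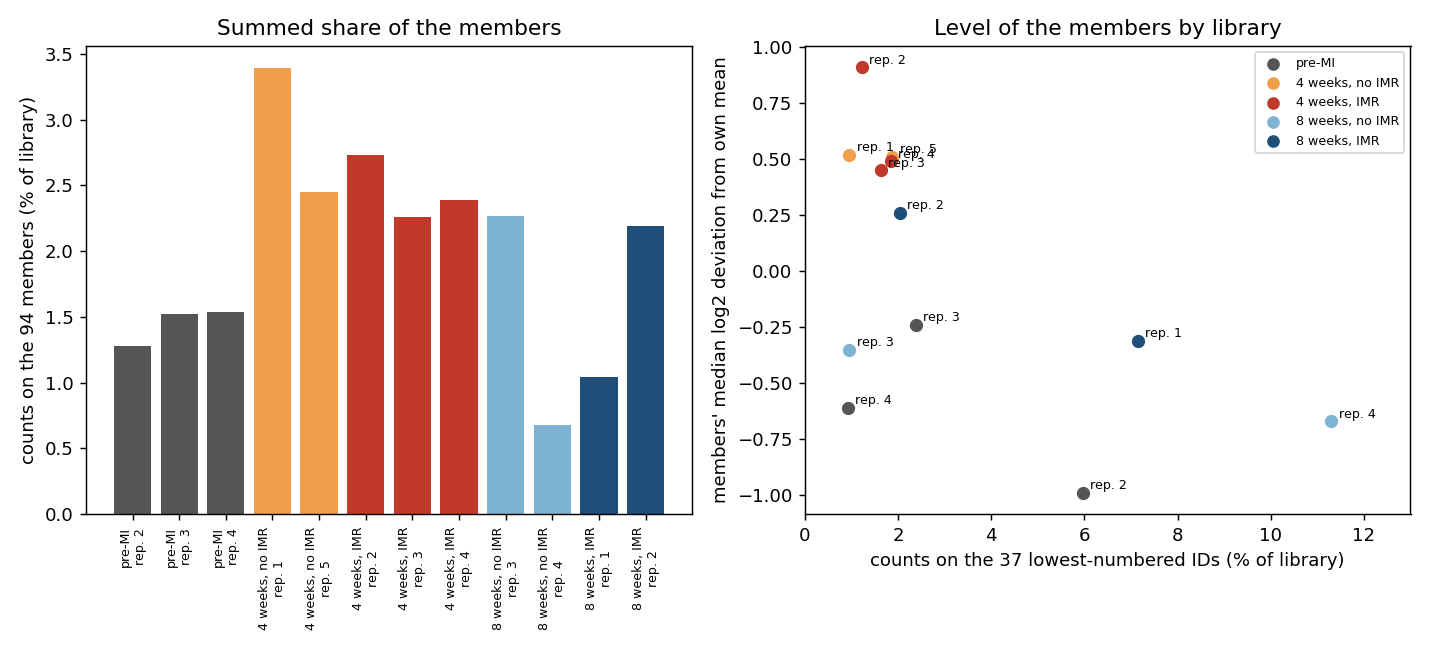
Left, the percent of each library's counts on the 94 members; right, the members' median log2 deviation from their own mean over 12 libraries, against the percent of counts on the 37 lowest-numbered IDs, with 1 point per library. The 3 libraries above 5% lie at -0.31 or lower, and so do 8-week replicate 3 without IMR and pre-MI replicate 4 at about 1% on these IDs.

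Weighting each member equally gave a different order of the 8-week libraries. The median deviation from a member's own mean over the libraries, as log2(CPM + 0.5), was 0.45 to 0.91 in the 4-week libraries and -0.99, -0.24 and -0.61 in pre-MI replicates 2, 3 and 4. At 8 weeks it was -0.35 and -0.67 in replicates 3 and 4 without IMR and -0.31 and 0.26 in replicates 1 and 2 with IMR. Over the other genes at the floor it was -0.06, -0.14, 0.08 and 0.11 in these libraries, which thus ranked the same way. Replicate 2 with IMR was the highest 8-week library for 64 members and the lowest for 0. It reached the range of the 4-week libraries for 58 members, against 17 for replicate 3 without IMR, 16 for replicate 1 with IMR and 6 for replicate 4 without IMR. Over all genes at the floor the shares with a value at or above the lowest 4-week library were 93.7%, 85.3%, 90.3% and 79.8% in the same order, so that the libraries with the most and the fewest members are also the highest and the lowest over all genes.

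Complete separation of 4 from 8 weeks was the exception. Every 4-week library lay above every 8-week library in 24 of the 94 members (25.5%). Over the 13605 genes the share was 0.691%, and nothing is read from the difference because the rule used these values. In 46 members 1 of the 8-week libraries reached the 4-week range, in 22 members 2 did, and 1 member each had 3 and 4.

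How far the level had returned at 8 weeks also differed among members. The 8-week mean was above the pre-MI mean in 81 members and at or below it in 13. In the edgeR fit, which scales the libraries differently, 93.6% of members and 54.3% of all genes tested were higher at 8 weeks than before MI. The ratio of the 8-week to the pre-MI mean had a median of 1.36 (0.704 to 8.72), against 0.943 over all genes at the floor. The difference between the 4-week and 8-week means was 46.2% to 140% of that between the 4-week and pre-MI means, with a median of 78.3%. The ranges at 8 weeks and before MI overlapped in 89 members, and in 5 members every 8-week library lay above every pre-MI library (0.720% of all genes at the floor). In bands of level set after seeing the values, the median 8-week to pre-MI ratio was 1.77 under 5 CPM, 1.45 from 5 to under 50 and 1.09 from 50 to under 500 CPM. These values are descriptions, since the rule chose low pre-MI values and bounded the 8-week mean.

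**Figure D4:**
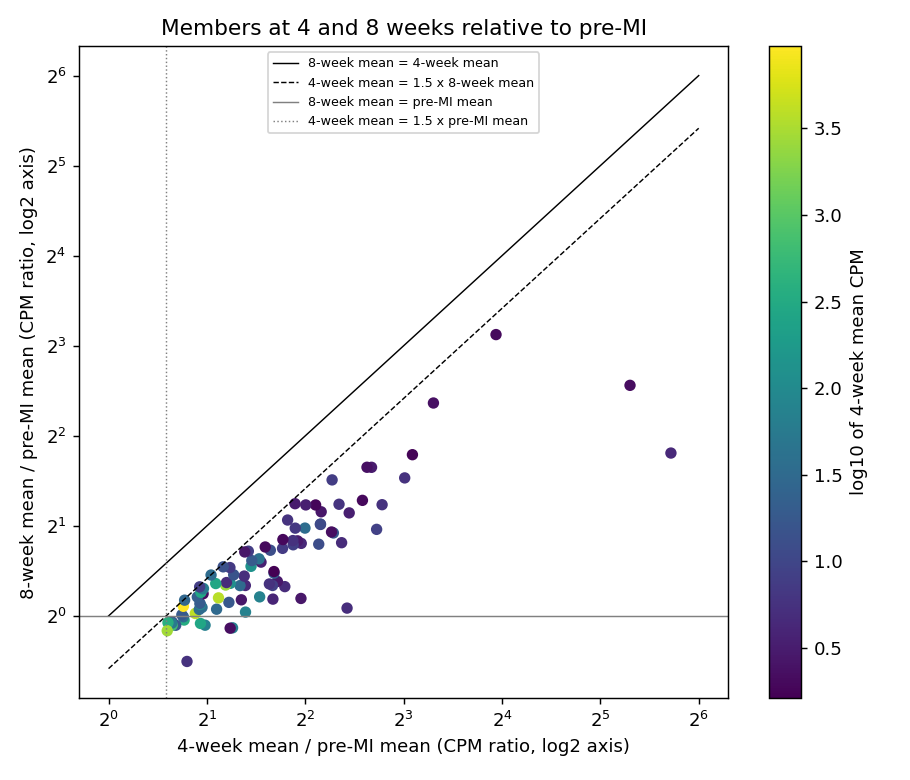
Each point is a member: the 4-week mean over the pre-MI mean (x) and the 8-week mean over the pre-MI mean (y), both on log2 axes, coloured by the log10 of the 4-week mean CPM. Points lie under the dashed line and right of the dotted line because the rule placed them there; 81 of 94 lie above the line at 1, and the brightest points, the abundant members, lie close to it.

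The lowest pre-MI value came most often from 1 animal. Pre-MI replicate 2 was the lowest of the 3 pre-MI libraries in 63 members (67.0%), and also in 49.3% of all genes at the floor. It had 0 counts for 13 members, against 1 each in the other pre-MI libraries. The rule's limit was the highest pre-MI value, which lay in replicate 3 for 63 members, in replicate 4 for 27 and in replicate 2 for 4. Without replicate 2 the rule kept 98 genes, 88 of them members.

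Among the 4-week libraries the members did not share 1 peak. Replicate 2 with IMR was highest for 38 members (40.4%, and 19.9% of all genes at the floor). Replicate 5 without IMR was highest for 26 members and 38.3% of all genes, and replicate 1 without IMR for 17 members and 6.07% of all genes. Replicates 3 and 4 with IMR were highest for 3 and 10 members, and for 15.2% and 20.6% of all genes. The 38 members highest in replicate 2 with IMR exceeded the mean of the other 4 libraries by a median of 1.81-fold, and the 26 highest in replicate 5 by 1.77-fold. For example, the member of rank 4 by ratio had 21.2 CPM in replicate 2 with IMR and 4.50 to 7.55 CPM in the other 4-week libraries. The coefficient of variation at 4 weeks had a median of 32.5% over the members (9.69% to 86.3%) and 41.2% over all genes at the floor. The rule bounded the members' lowest 4-week value, and its part in this difference was not tested.

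Regurgitation did not enter the rule, so the animals with and without IMR at the same time gave the comparison least tied to the choice of members. In edgeR's quasi-likelihood test at 4 weeks (3 animals with and 2 without IMR), 0 of 94 members passed an adjusted p of 0.05, as did 0% of the 14804 genes tested, and the smallest adjusted p among members was 0.637. At an unadjusted p under 0.05 there was 1 member (1.06%), against 7.42% of all genes. This member was lower with IMR, by a log2 fold change of -1.16 with a standard error of 0.52. DESeq2 also gave 1 member and limma voom gave 0. The rule bounded the members' lowest 4-week values, and the part of this in their lower share was not tested. Leaving out a library gave 0 to 4 members, beside 413 to 3117 of all genes (1099 with every library). The count was 4 without replicate 1 (no IMR), where 1840 genes passed the same threshold, and 4 without replicate 4 (IMR), where 3117 did. It was 2 without replicate 5 (no IMR), with 630 genes, and 0 without any 1 of the pre-MI libraries or of replicates 2 and 3 with IMR. In CPM, every library with IMR lay above both without it in 15 members (16.0%) and 19.6% of genes at the floor, and below them in 4 members and 3.74% of genes. The median ratio of the means with and without IMR was 1.02 over the members and 1.04 over all genes at the floor.

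For ENSOARG00000005652 the log2 fold change with IMR at 4 weeks was 0.28 with a standard error of 0.96 (edgeR adjusted p = 0.935), and for ENSOARG00000007656 it was -0.43 with a standard error of 0.61 (edgeR adjusted p = 0.830). Neither passed under any alternative that tested it, and both changed sign under at least 1 alternative. The first changed to -0.34 with the replicate number as a block. The second changed to 0.54 without 4-week replicate 1 of the animals without IMR.

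At 8 weeks (2 animals with and 2 without IMR), 0 of 94 members and 0% of genes passed in edgeR, with an adjusted p of 1.00 for the smallest. At an unadjusted p under 0.05 there were 2 members, both higher with IMR (2.13%, against 2.39% of all genes). DESeq2 gave 3 and limma voom gave 1, with 0 passing the adjustment in both. With every library 354 of all genes passed this unadjusted threshold. The members' count was 5 without replicate 3 (no IMR), where 601 genes passed, 4 without replicate 4 (no IMR), with 456 genes, and 1 without replicate 1 (IMR), with 187 genes. In CPM, 78 members had a higher mean with IMR (median ratio 1.49), and 60.4% of all genes at the floor did (median ratio 1.08). Both libraries with IMR lay above both without it in 38 members (40.4%), against 22.1% of genes, and below them in 1 member, against 4.88%. In the edgeR fit 77.7% of members and 47.6% of all genes tested were higher with IMR. In CPM the direction leaned on replicate 2 with IMR. Without replicate 2, 52 members had the higher value with IMR, with a median ratio of 1.04, and 52.8% of genes did. That left replicate 1 as the only 8-week library with IMR, with 7.14% of its counts on the lowest-numbered IDs. The rule bounded the 8-week mean, and its part in the direction was not tested. Without any 1 of the other 8-week libraries 71 to 87 members were higher with IMR, beside 62.4% to 65.0% of all genes at the floor.

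Over both times together (5 animals with and 4 without IMR), 0 members and 0% of genes passed in edgeR, and 4 members had an unadjusted p under 0.05, all higher with IMR (4.26%, against 5.17% of all genes). DESeq2 also gave 4 and limma voom 5, with 0 passing. When 4-week replicate 1 of the animals without IMR was left out, the count was 8, beside 1218 of all genes (766 with every library). It was 1 when either 4-week replicate 5 (no IMR) or replicate 2 (IMR) was left out, beside 641 and 444 genes. An interaction term, which compares the effect of IMR between the times, also gave 0 members and 0% of genes, with 1 member at an unadjusted p under 0.05 (1.06%, against 3.35% of all genes) in edgeR, DESeq2 and limma voom each, and 0 to 6 members when a library was left out. Over all genes 496 passed the unadjusted threshold with every library. Leaving out a library without IMR gave 6 members beside 660 genes (8-week replicate 3), and 3 members beside 672 (8-week replicate 4) or 480 genes (4-week replicate 5). Leaving out one with IMR gave 2 members beside 415 genes (8-week replicate 1), and 0 beside 485 (8-week replicate 2) or 308 genes (4-week replicate 3). Pre-MI replicates 3 and 4 gave 0 members beside 421 and 410 genes.

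The contrasts between times used the values that chose the members, and their tests are given only as a description. For 4 weeks against pre-MI, edgeR passed 0 members and 0% of genes, with 0.806 as the lowest adjusted p, and 89 members had an unadjusted p under 0.05 while 4.74% of all genes did. DESeq2 passed 41 genes, 23 of them members, and limma voom 0 members. For 8 weeks against 4 weeks, 0 members and 0% of genes passed in edgeR, and 62 members had an unadjusted p under 0.05, against 7.20% of all genes. Leaving out a 4-week library took that count to 28 (replicate 1, no IMR) or 38 (replicate 2, IMR), and that over all genes from 1066 to 704 or 620. Leaving out an 8-week library took it to 37 (replicate 4, no IMR) or 31 (replicate 1, IMR), and that over all genes to 531 or 520. DESeq2 passed 23 genes here, 1 of them a member. For 8 weeks against pre-MI, 0 members and 0% of genes passed and 9 members had an unadjusted p under 0.05, all higher at 8 weeks, against 1.93% of genes. Over all genes 286 did so. The members' count was 24 without pre-MI replicate 3 and 2 without pre-MI replicate 4, beside 343 and 258 genes. It was 3 without pre-MI replicate 2 or 8-week replicate 2 (IMR), beside 575 and 398 genes, and 5 without 4-week replicate 1 (no IMR) or replicate 3 (IMR), beside 334 and 231 genes. The 3 contrasts share libraries.

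The edges of the set were not sharp. The members nearest to the limit on the 8-week mean had a 4-week mean of 1.5030 and 1.5138 times it, and the nearest genes left out had 1.4928 and 1.4773 times. The limit on separation was crossed by still less: the lowest 4-week value was 1.0002 and 1.0014 times the highest pre-MI value in the closest members, and 0.9998 and 0.9891 times in the closest genes left out. On that condition 16 members lay within 5% above the limit and 16 genes within 5% below it. On the pre-MI mean the closest members stood at 1.5120 and 1.5204 times, and the closest genes left out at 1.4679 and 1.4172 times.

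Counts behind the thin members were small. Each member had between 155 and 1249986 counts over the 12 libraries, with a median of 860. In 5 members some 4-week library held under 10 counts, and in 4 members every pre-MI library did. At least 1 pre-MI library held 0 counts in 13 members, and none of the 94 had 0 counts in all of them. Library totals ran from 7768007 to 19175100 counts, lowest in 4-week replicate 5 without IMR.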

How the data were processed

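Poly-A RNA of 12 mitral anterior leaflets was counted. The deposited values are raw counts per Ensembl sheep gene ID, 1 column per animal. Per the submitters' processing notes, Bowtie2 2.2.3, TopHat2 2.0.12 and HTSeq 0.6.1 were used by the authors; build, annotation release, strand setting and the treatment of shared reads are not given in the sources used here, so similar or overlapping genes are uncertain. The members, their rule and the lists planned for them were chosen with earlier results of these data known. Planned marker and pathway lists need gene names and were not analysed here. CPM used column totals. Tests used edgeR 4.0.16 (R 4.3.3): TMM factors, filterByExpr (14804 genes), robust quasi-likelihood fits of 5 groups with 7 residual degrees of freedom, and Benjamini-Hochberg adjustment over all genes at 0.05. The standard error is the log2 fold change divided by the root of F. Alternatives were DESeq2 1.42.0, limma 3.58.1 voom, RLE factors, other filters, the replicate number as a block and leaving out each library. The fit and the rule were tested on simulated data. Only 2 members were printed by ID, by rule: the most abundant, and the one with the largest margin of its lowest 4-week value over all other libraries. Libraries are separate samples (smallest chi-square per degree of freedom 37.6), with no statement on shared flocks or days. Totals of 7768007 to 19175100 counts set the precision; the floor of 3 counts covers counting error only, since reads lack molecular identifiers. Figures used matplotlib 3.10.9.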

Additional observations from a re-analysis of the deposited data

Results flagged for a closer look

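Within each of the 4-week and 8-week groups, the highest and lowest library were set against the rest by Dixon's ratio of the end gap to the whole range, at its 95% critical value. Chance passes about 1 in 20 groups. Of 26 such comparisons of the values shown, 3 passed. The values tested also entered the choice of members, so the number that passed is given as a description.

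For the member of rank 3 by ratio, 4-week replicate 4 (IMR) stood at 10.7 CPM and the remaining 4-week values at 2.45 to 4.44 CPM. For rank 4, 4-week replicate 2 (IMR) stood at 21.2 CPM and the remaining ones at 4.50 to 7.55 CPM. In the same library the members' median log2 deviation from their own mean was 0.91, against 0.45 to 0.52 in the other 4-week libraries.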

How the results depend on the processing

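The rule kept 184 genes with TMM-adjusted sizes and 164 with DESeq2 size factors. At a mean CPM of 5 it kept 49 and at a ratio of 2 it kept 40 (both stricter). It kept 74 to 205 when a library was left out, lowest without 8-week replicate 4 (no IMR) and highest without pre-MI replicate 4. Leaving out a pre-MI or 4-week library can only loosen the condition on separation, and the part of this was not tested. Totals without the 37 IDs gave 88, of which 87 were members, and totals without the most abundant gene 109. The cause of the change with scaling was not tested. DESeq2 passed 23 members for 4 weeks against pre-MI and 1 for 8 weeks against 4 weeks; the cause was not tested. In every other combination of the 7 contrasts with a setting, 0 members passed the adjustment. The replicate number fitted as a block in edgeR also passed 0 members in each contrast. At an unadjusted p under 0.05 this fit gave 59 members beside 576 of all genes between pre-MI and 4 weeks. For IMR it gave 5 beside 450 at 4 weeks (1 beside 1099 with no block) and 1 beside 339 at 8 weeks. Same-numbered libraries' deviations from their group means correlated at -0.0612 on average over 10 pairs (-0.499 to 0.473). Each animal gave 1 library, so the numbers do not mark the same animal at different times. In a group of 2 libraries the deviations mirror each other, so these values cannot tell whether the numbers mark any other grouping. A filter at a mean CPM of 5, which tests fewer genes, left 47 members between pre-MI and 4 weeks and 38 between 4 and 8 weeks at that unadjusted threshold. Members under 5 CPM are limited by their counts.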
